A study of Homo sapiens with 6 samples.

Results

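The adhesion receptor genes described here are integrins, intercellular adhesion molecules (ICAMs), PECAM1, selectins and their ligand SELPLG, cadherins, protocadherins, nectins, CADM and JAM proteins, and CEACAM proteins. They were chosen by gene symbol: 148 symbols of 20348 genes carried one of these family names, and 64 of them had at least 10 counts summed over the 6 samples. Messenger RNA was sequenced from MV4-11 cells, an established human acute myeloid leukemia (AML) line. The Control group (n = 3) received no drug and the WNK463 group (n = 3) received 1 μM WNK463, an inhibitor of the WNK kinases, for 48 h. The samples come from a cell line grown alone, without stroma, endothelium or other partner cells, so the genes were read in a setting without the cells that these receptors usually bind. Nothing in the labels says whether the 3 samples of a group were separate cultures, and the p-values then measure only the spread between these samples, which may be technical.

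Integrins are heterodimers of an alpha and a beta subunit that bind matrix proteins and counter-receptors on other cells, and they are switched on from inside the cell by talin and kindlin. On leukocytes the beta subunit encoded by *ITGB2* pairs with the alpha subunits of *ITGAL*, *ITGAM* and *ITGAX*, and the resulting receptors bind the ICAMs. The product of *ITGA4* pairs with those of *ITGB1* or *ITGB7* and binds fibronectin, VCAM1 or the gut addressin MADCAM1. Its contacts with fibronectin and VCAM1 can hold leukemic cells in the marrow niche. Cadherins, protocadherins, nectins, CADM and JAM proteins mostly bind like molecules on a neighbouring cell, and selectins bind sugars on carriers such as the product of *SELPLG*.

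Total estimated counts per sample lay between 14915745 and 17411780, and the TMM normalization factors were 0.944 to 0.951 in Control and 1.05 to 1.06 with WNK463. Of the 10 genes used as markers of a myeloid leukemia line, all 10 were detected. The listed endothelial markers (*CLDN5*, *EMCN*, *KDR*, *ROBO4* and *TEK*) and erythroid markers had 3 counts or fewer in every sample, as had *CD2*, *CD3D*, *CD3E* and *CD3G* of T cells, *PF4* and *PPBP* of platelets, and *COL1A2*, *COL3A1*, *DCN* and *LUM* of fibroblasts. Other genes of these lists had counts: the 6 T cell markers summed to 0.274 to 0.610 CPM in Control and 0.756 to 1.09 CPM with WNK463, and the 6 fibroblast markers to 0.366 to 1.17 CPM and 1.22 to 1.81 CPM, where *PDGFRB* was called higher (11, 13 and 4 counts against 26, 16 and 22). The 5 B cell markers summed to 1.65 to 2.37 CPM and 2.72 to 3.26 CPM, with *PAX5* higher and *MS4A1* at 3 counts or fewer. The 5 epithelial markers summed to 18.9 to 21.2 CPM and 19.9 to 20.8 CPM, with *KRT8* and *CLDN4* higher, *KRT18* lower and *KRT5* and *KRT19* at 3 counts or fewer. Macrophage markers moved with the treatment: their summed level was 7.01 to 8.22 CPM (counts per 1000000 on TMM library sizes) in Control and 29.7 to 31.0 CPM with WNK463. On the adjusted p, 6 of 7 tested were higher and none lower, where 35.5% of all tested genes were higher. Among these 6, *C1QA*, *C1QB*, *C1QC* and *APOE* passed the filter on low counts (described below) through WNK463 only, so their direction is a description. *CD163* and *MRC1* had 3 counts or fewer in every sample. The summed level of the 10 leukemia line markers was 2439 to 2549 CPM in Control and 1501 to 1541 CPM with WNK463. This fall came from *LYZ*, the lysozyme gene (1326 to 1406 CPM against 282 to 304 CPM), and the other 9 summed to 1113 to 1154 CPM in Control and 1214 to 1237 CPM with WNK463. On the adjusted p of the test below, 5 of the 10 were higher (*CSF1R*, *CSF2RA*, *HOXA9*, *MEIS1* and *CEBPA*) and 4 lower (*LYZ*, *MPO*, *CD33* and *FLT3*). The share of all tested genes that passed in either direction was 70.8%. The part of these shifts in the results below was not tested. In bulk samples, a change in the number of cells that carry a transcript and a change in the transcript per cell cannot be told apart.

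The stretches of genome printed here are shown because they lie just before the start of integrin alpha genes that are described below, *ITGAM*, *ITGAV* and *ITGA2B*, which were higher with WNK463, and *ITGA6*, which was lower. Each is the 250 bases before the RefSeq start on GRCh38.p14, read 5′ to 3′ on the strand of the gene. *ITGAM* is shown from chr16:31259725-31259974 on the plus strand, *ITGAV* from chr2:186589806-186590055 on the plus strand, *ITGA2B* from chr17:44389650-44389899 on the minus strand and *ITGA6* from chr2:172427086-172427335 on the plus strand. Capitals mark letters that match GAGGAA on either strand (the core bound by the myeloid factor PU.1) or CACGTG (the E-box); none of the other searched motifs occurs in these 4 windows.
ITGAM: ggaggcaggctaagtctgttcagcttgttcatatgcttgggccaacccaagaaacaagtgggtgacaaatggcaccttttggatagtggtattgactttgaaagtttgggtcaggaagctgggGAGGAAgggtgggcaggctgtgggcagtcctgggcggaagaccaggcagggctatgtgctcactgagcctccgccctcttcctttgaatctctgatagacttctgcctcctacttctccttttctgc
ITGAV: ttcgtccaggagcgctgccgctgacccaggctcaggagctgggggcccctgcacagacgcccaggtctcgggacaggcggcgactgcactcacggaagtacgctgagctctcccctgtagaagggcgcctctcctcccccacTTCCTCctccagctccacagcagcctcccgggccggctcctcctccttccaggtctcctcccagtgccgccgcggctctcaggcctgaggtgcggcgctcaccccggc
ITGA2B: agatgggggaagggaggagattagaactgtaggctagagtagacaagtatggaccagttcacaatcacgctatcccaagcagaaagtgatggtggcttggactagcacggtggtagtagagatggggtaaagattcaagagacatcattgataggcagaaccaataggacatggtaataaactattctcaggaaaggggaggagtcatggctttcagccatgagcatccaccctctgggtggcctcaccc
ITGA6: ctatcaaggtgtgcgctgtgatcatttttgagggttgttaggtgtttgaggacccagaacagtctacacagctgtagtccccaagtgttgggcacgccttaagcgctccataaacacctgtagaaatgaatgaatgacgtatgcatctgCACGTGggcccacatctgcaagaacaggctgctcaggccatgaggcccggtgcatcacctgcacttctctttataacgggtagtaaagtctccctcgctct
Of the 46 members with a test, 30 had a promoter in the RefSeq table. GAGGAA occurred on either strand in 11 of these 30 windows, against 23.4% of the 27305 promoters in the table, and in 4 of the 9 windows of higher genes and 2 of the 7 of lower genes called below. TGTGGT (the RUNX core) occurred in 2 of 30 (10.9% of all promoters), TGANTCA (AP-1) in 1 (6.6%), CACGTG in 1 (6.49%) and TGACGTCA (the CRE) in none (1.77%). These are matches of letters and not shown to be bound sites.

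Of the 64 members, 46 passed the default edgeR filter on low counts and were tested among 11973 genes. A gene is called here when the adjusted p-value (edgeR quasi-likelihood test, Benjamini-Hochberg adjustment over all tested genes) was below 0.05 and the level changed at least 2-fold, and it is said to have passed the test on the adjusted p alone. All adjusted p-values below come from this test unless another is named. Among the tested members 23 were called (50.0%), 14 higher and 9 lower, where 15.2% of all tested genes were called, 9.62% higher and 5.55% lower. On the adjusted p alone 22 members were higher, 14 lower and 10 did not pass, and the share of all tested genes that passed was 70.8%, 35.5% higher and 35.3% lower. The median log2 fold change was 0.39 for the tested members and 0.02 for all tested genes. In CPM (counts per 1000000), Control and WNK463 samples did not overlap for 36 of the tested members, 22 higher and 14 lower, where 73.5% of all tested genes did not overlap, 37.1% higher and 36.4% lower.

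The filter bears on these counts. A gene was tested when it exceeded 0.625 CPM in at least 3 samples, and 35 members did so in both groups, of which 10 were called higher and 3 lower. A further 6 members reached it in Control only and all were called lower (*ICAM2*, *ITGB3*, *ITGA2*, *ITGA11*, *PCDHGB7* and *PCDHGA6*), and 4 reached it with WNK463 only and all were called higher (*JAM2*, *CEACAM19*, *CADM4* and *PCDH9*). Such genes could hardly be tested without differing, so their direction is a description. All tested genes were not split in this way, so no matching share stands beside these counts. Whether low counts bear on the larger share of calls among the members was not tested. The same holds for genes of the other lists, including the markers, that reached the level in a single group only. *NECTIN4* was above the level in samples of both groups.

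**Figure D1:**
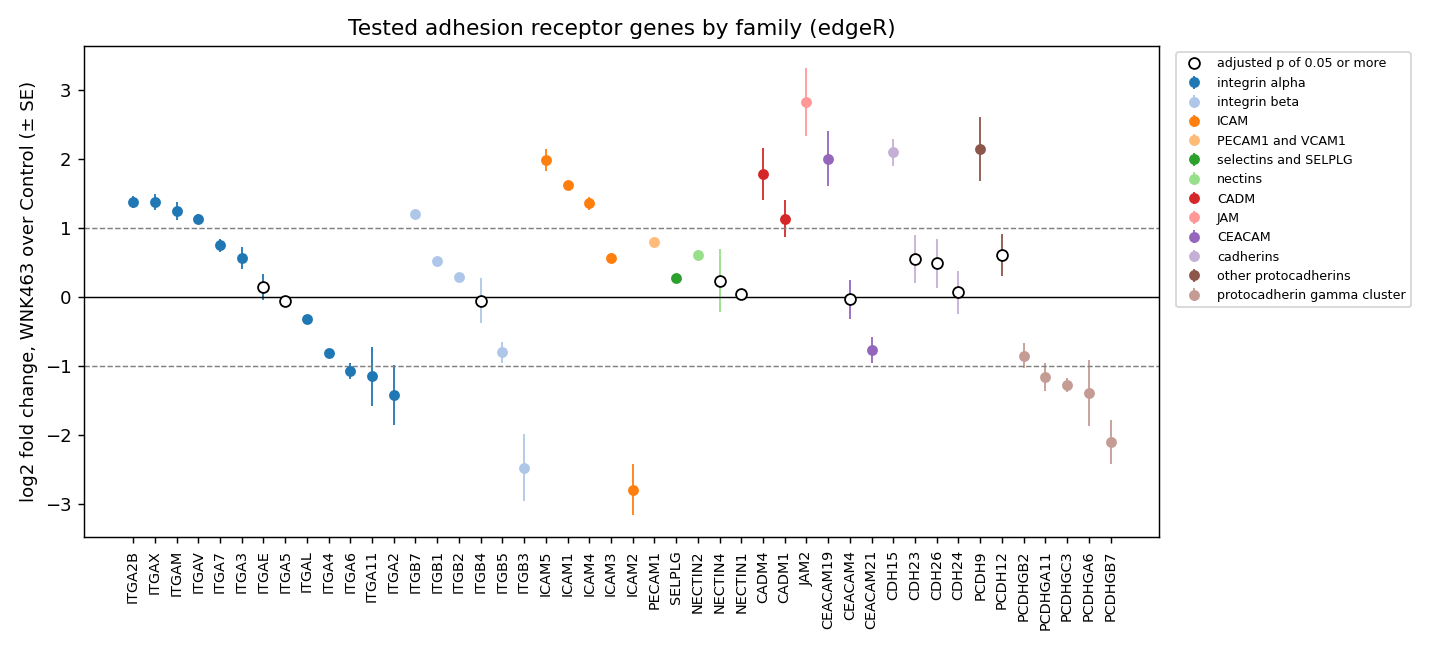
Log2 fold change of the 46 tested adhesion receptor genes (WNK463 over Control, edgeR, vertical axis), ordered by family along the horizontal axis, with bars of ± 1 SE. White points have an adjusted p of 0.05 or more and dashed lines mark a 2-fold change; of the 5 ICAM genes 4 lie above zero and *ICAM2* below, the integrins spread to both sides, and the 5 tested gamma-cluster protocadherins lie below zero.

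Of the 5 ICAM genes, 4 rose and *ICAM2* fell, and the family's median log2 fold change was 1.36. Among all tested genes 35.5% passed higher and 35.3% lower, and the median was 0.02. *ICAM1* (chromosome 19, 10270835 to 10286615, plus strand) encodes the inducible ligand of the *ITGB2* integrins on leukocytes and endothelium. In Control it had 28.6, 29.3 and 26.9 CPM, and with WNK463 88.2, 84.5 and 88.7 CPM. The mean rose from 28.3 ± 1.23 (SD, n = 3) to 87.2 ± 2.30 CPM (SD, n = 3), a 3.08-fold change with a log2 fold change of 1.63 ± 0.06 (SE) and an adjusted p of 2.8e-13. Every WNK463 sample lay well above every Control sample.

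*ICAM4* and *ICAM5* lie directly downstream of *ICAM1* on the same strand. *ICAM4* starts 352 bases after the end of *ICAM1*, and *ICAM5* 1459 bases after the end of *ICAM4*. *ICAM4*, known as an adhesion molecule of red cells and a blood group antigen, had 9.62, 8.92 and 8.96 CPM in Control and 22.9, 23.8 and 24.2 CPM with WNK463. This rise was 2.58-fold (log2 fold change 1.36 ± 0.10, edgeR adjusted p = 6.6e-10). For *ICAM5*, first known from neurons of the forebrain, the values were 2.37, 3.91 and 3.42 CPM in Control and 13.2, 13.4 and 11.7 CPM with WNK463. It rose 3.97-fold, with a log2 fold change of 1.99 ± 0.16 and an adjusted p of 5.9e-09. The groups were far apart for both genes. *ICAM3*, the constitutive ICAM of resting leukocytes, lies 36998 bases beyond *ICAM5* on the opposite strand. It had 48.3, 42.8 and 43.7 CPM in Control and 69.5, 63.6 and 67.5 CPM with WNK463, a smaller rise of 1.49-fold (log2 fold change 0.57 ± 0.07, edgeR adjusted p = 4.1e-07).

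*ICAM2* was the exception. It lies on chromosome 17 (64002594 to 64020634, minus strand), apart from the other ICAM genes, and its product is a ligand of the *ITGAL* integrin on endothelium, platelets and some leukocytes. It had 52, 44 and 45 counts in Control and 3, 11 and 7 counts with WNK463, or 3.17, 3.02 and 2.74 CPM against 0.181, 0.640 and 0.447 CPM. The log2 fold change was -2.79 ± 0.37 with an adjusted p of 2.2e-06, and no WNK463 sample came near the Control samples. This gene passed the filter through its Control samples only.

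Levels can be compared between genes in TPM (transcripts per 1000000, scaled for length). In Control the ICAM genes together had 101 ± 3.97 TPM (SD, n = 3) and with WNK463 215 ± 3.59 TPM, a ratio of 2.13, and the groups did not overlap (exact permutation test, two-sided p = 0.10, the smallest that 3 against 3 samples allow). *ICAM3* had the highest level in both groups, but its share of the ICAM TPM went from 60.8 ± 2.10% to 47.3 ± 1.15%, while that of *ICAM1* went from 18.0 ± 1.63% to 29.0 ± 0.330% (exact permutation p = 0.10 for each). Exons of ICAM genes overlap annotated antisense RNAs. These cover 22.0% of the exon bases of *ICAM1*, 71.2% of *ICAM3* and 100% of *ICAM4*, and the sources used here do not state whether counting used the strand, so that reads of an antisense RNA would not be told apart from those of the gene.

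**Figure D2:**
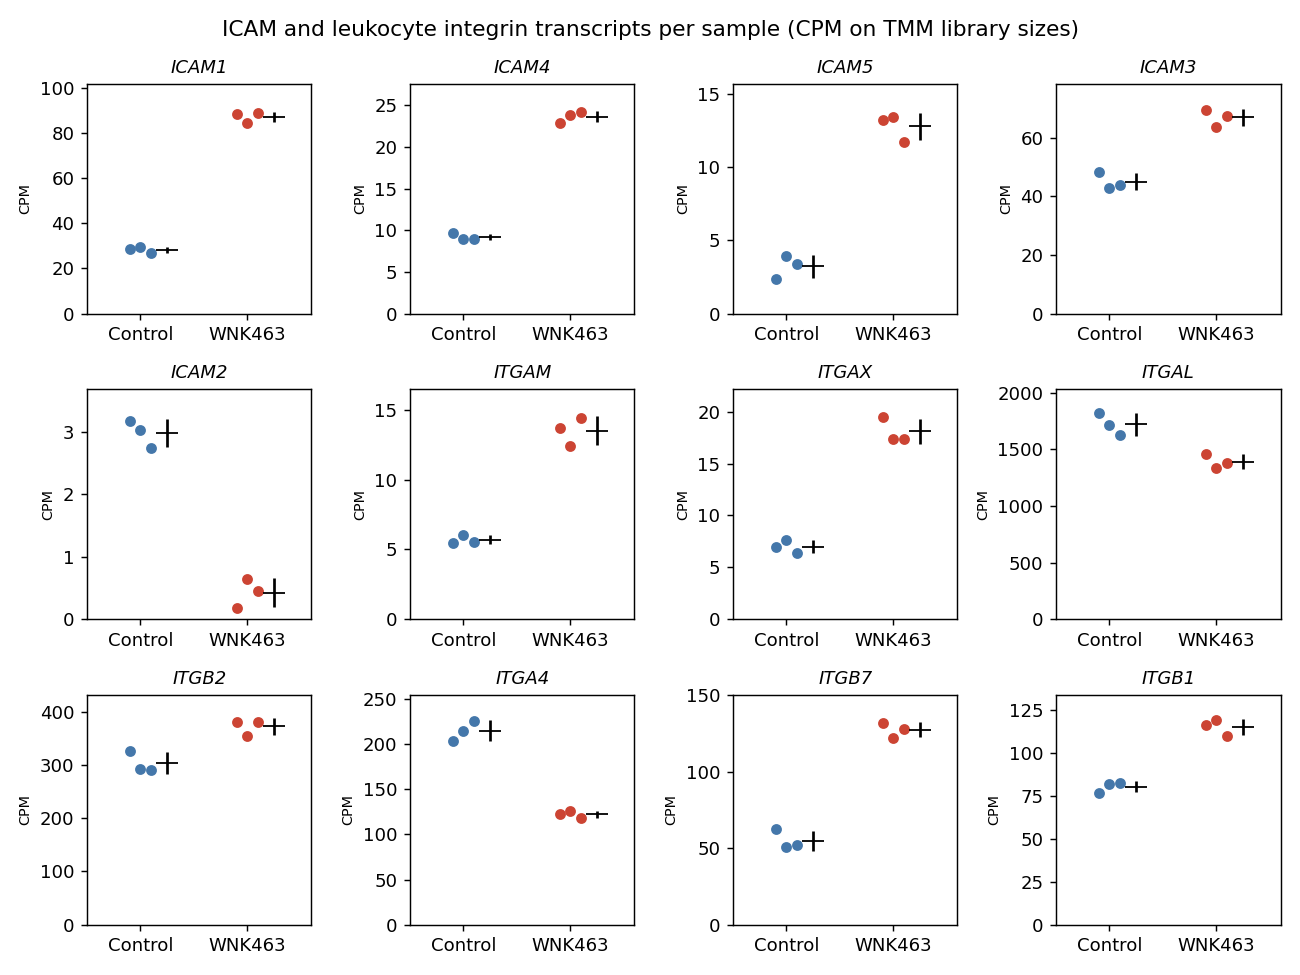
CPM on TMM library sizes (vertical axes, linear from 0) of 5 ICAM and 7 leukocyte integrin genes in each Control (blue) and WNK463 (red) sample, with the mean and SD of 3 samples in black beside the points. The WNK463 samples lie above all Control samples in 9 of the panels and below them for *ICAM2*, *ITGAL* and *ITGA4*.

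Among the receptors for the ICAMs, the minor alpha subunits rose and the major one did not. *ITGAM*, which encodes the CD11b chain of monocytes and neutrophils, and *ITGAX*, which encodes the CD11c chain of monocytes, macrophages and dendritic cells, are neighbours on chromosome 16 with 22242 bases between them. *ITGAM* had 5.48, 6.04 and 5.49 CPM in Control and 13.7, 12.4 and 14.4 CPM with WNK463. Its level rose 2.38-fold (log2 fold change 1.25 ± 0.13, edgeR adjusted p = 7.9e-08). *ITGAX* had 6.94, 7.61 and 6.40 CPM in Control and 19.5, 17.4 and 17.4 CPM with WNK463, which was 2.60-fold higher (log2 fold change 1.38 ± 0.11, edgeR adjusted p = 6.1e-09). The groups were clearly separate for both.

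*ITGAL*, which encodes the CD11a chain of lymphocyte function-associated antigen, was the most abundant integrin transcript of either kind, with a mean of 702 TPM over the 6 samples. It had 1822, 1715 and 1625 CPM in Control and 1462, 1331 and 1377 CPM with WNK463. On this scale it fell by 0.31 ± 0.05 on the log2 scale with an adjusted p of 3.1e-05. In TPM the groups came closer, with 689 to 749.7 TPM in Control and 657 to 701 TPM with WNK463, they overlapped, and limma on log2(TPM + 1) gave a log2 fold change of -0.06 and an adjusted p of 0.24. The shared beta subunit gene *ITGB2* had 327, 293 and 291 CPM in Control and 381, 355 and 382 CPM with WNK463, a rise of 1.23-fold (log2 fold change 0.30 ± 0.05, edgeR adjusted p = 7.4e-05).

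The make-up of the *ITGB2* partners shifted little in absolute terms. *ITGAM* and *ITGAX* together took 0.734 ± 0.104% of the TPM of the *ITGB2* partners in Control and 2.10 ± 0.0848% with WNK463, 2.86 times as much, and *ITGAL* made up 99.3% and 97.9% (exact permutation p = 0.10 for both). The partners summed were 723 ± 30.3 TPM in Control and 701 ± 26.2 TPM with WNK463 (exact permutation p = 0.40). The ratio of *ITGB2* to *ITGAL* TPM was 0.422 ± 0.0129 in Control and 0.570 ± 0.00673 with WNK463, and every WNK463 sample was above every Control sample. No protein was measured, so these are ratios of transcripts and not of assembled receptors.

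*ITGA4* fell, while the genes of both of its beta partners, *ITGB7* and *ITGB1*, rose. *ITGA4* (chromosome 2, 181457202 to 181536187) had 203, 215 and 226 CPM in Control and 123, 126 and 118 CPM with WNK463. It fell by 0.81 ± 0.05 on the log2 scale (edgeR adjusted p = 2.7e-10) and stayed short of a 2-fold change. *ITGB7* (chromosome 12, 53191318 to 53207307), whose product pairs with those of *ITGA4* and *ITGAE*, had 62.3, 50.5 and 51.8 CPM in Control and 132, 122 and 128 CPM with WNK463, a rise of 2.32-fold (log2 fold change 1.21 ± 0.07, edgeR adjusted p = 5.2e-11). *ITGB1*, the most widely paired beta subunit gene, had 76.7, 81.8 and 82.3 CPM in Control and 116, 119 and 109.9 CPM with WNK463, a rise of 1.43-fold (log2 fold change 0.52 ± 0.05, edgeR adjusted p = 1.5e-07). Both rises and the fall left no overlap between the groups.

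The TPM ratio of *ITGA4* to *ITGB7* was 1.52, 2.02 and 1.95 in Control and 0.466, 0.424 and 0.406 with WNK463. *ITGA4* was thus above *ITGB7* in all Control samples and below it in all WNK463 samples (exact permutation p = 0.10). *ITGB7* (34.3 to 41.2 TPM) and *ITGB1* (37.5 to 40.9 TPM) overlapped in Control, whereas with WNK463 *ITGB7* (95.5 to 101 TPM) lay above *ITGB1* (62.2 to 67.8 TPM). *ITGAE*, the other alpha partner of *ITGB7*, had a log2 fold change of 0.15 ± 0.19 and an adjusted p of 0.50. Exons of *ITGB7* share 1886 bases, 42.1% of its exon length, with *ZNF740* on the opposite strand, which had 805 to 901 counts in Control and 1003 to 1058 with WNK463, so some reads could belong to either gene if strand was not used.

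The fibronectin receptor subunit gene *ITGA5* was the second most abundant alpha transcript, with a mean of 158 TPM. It had 354, 328 and 325 CPM in Control and 325, 309.9 and 330.4 CPM with WNK463, the groups overlapped, and it did not pass the test (log2 fold change -0.06 ± 0.05, edgeR adjusted p = 0.27). The sign was positive when the libraries were scaled by total counts (0.09, adjusted p = 0.080) and in limma on TPM (0.08). The alpha partners of *ITGB1* summed to 245 ± 1.76 TPM in Control and 246 ± 3.49 TPM with WNK463 (exact permutation p = 0.90), and within this sum the share of *ITGA4* went from 27.7 ± 2.18% to 17.2 ± 1.44%.

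Other alpha subunit genes at lower levels moved either way. *ITGA2B*, which encodes the platelet fibrinogen receptor chain and is also found on early hematopoietic progenitors, had 17.4, 16.5 and 14.0 CPM in Control and 41.2, 40.5 and 43.2 CPM with WNK463, a rise of 2.61-fold (log2 fold change 1.38 ± 0.09, edgeR adjusted p = 1.5e-10). Its obligate partner gene *ITGB3* went the other way, with 36, 20 and 26 counts in Control and 9, 1 and 5 counts with WNK463 (log2 fold change -2.47 ± 0.48, edgeR adjusted p = 1.6e-04). The summed level of the 5 megakaryocyte and platelet markers was 1.59 to 2.44 CPM in Control and 1.53 to 3.08 CPM with WNK463, and *GP1BA*, the only marker of this list above the filter on low counts, did not pass the test (adjusted p = 0.48). *ITGB3* passed the filter through Control only, and 51.6% of its exon bases are shared on the same strand with *AC068234.1*, a gene with 0 to 4 counts.

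*ITGAV*, whose product binds RGD motifs with several beta partners, had 20.5, 20.5 and 21.0 CPM in Control and 44.1, 45.6 and 45.4 CPM with WNK463. This was 2.18-fold higher (log2 fold change 1.13 ± 0.07, edgeR adjusted p = 1.6e-10) with a narrow spread in both groups. Of its beta partners, *ITGB1* rose as given above, *ITGB3* fell, and *ITGB5* fell by 0.80 ± 0.15 on the log2 scale (12.3 ± 1.81 to 7.11 ± 1.45 CPM, edgeR adjusted p = 1.3e-04). The laminin receptor gene *ITGA6* fell, with 14.5, 15.4 and 16.5 CPM in Control and 7.19, 6.98 and 7.92 CPM with WNK463 (log2 fold change -1.07 ± 0.11, edgeR adjusted p = 1.8e-07). The fall of *ITGA6* was short of 2-fold with total-count scaling (-0.92) and in limma on log2(TPM + 1) (-0.68) and log2(TPM + 0.1) (-0.84). *ITGA7* and *ITGA3*, which also encode laminin receptor chains, rose by 0.75 ± 0.10 (edgeR adjusted p = 2.0e-06) and 0.57 ± 0.16 (adjusted p = 0.0038) on the log2 scale.

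The collagen receptor genes *ITGA2* and *ITGA11* were near the detection limit. *ITGA2* had 30, 10 and 25 counts in Control and 7, 11 and 7 counts with WNK463 (log2 fold change -1.42 ± 0.43, edgeR adjusted p = 0.0065), and Control 2 was close to the WNK463 samples. It did not pass in limma on log2(TPM + 1) (-0.32, adjusted p = 0.055). *ITGA11* had 24, 15 and 17 counts in Control and 13, 4 and 9 counts with WNK463 (log2 fold change -1.15 ± 0.43, edgeR adjusted p = 0.022). *ITGA11* did not pass with DESeq2 (adjusted p = 0.056), without Control 1 (adjusted p = 0.096), without WNK463 2 (adjusted p = 0.12) or in limma on TPM (adjusted p = 0.35 and 0.19). *ITGB4*, the epithelial laminin receptor subunit gene, had a log2 fold change of -0.05 ± 0.33 (adjusted p = 0.90), with a positive sign under total-count scaling.

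Of the 19 tested integrin genes, 9 were higher, 7 lower and 3 did not pass the test, where 35.5% of all tested genes were higher and 35.3% lower. Among the 13 alpha genes, 5 were lower here, against 2 in limma on log2(TPM + 1). The summed TPM of the alpha subunit genes was 979 ± 32.6 in Control and 976 ± 26.4 with WNK463 (exact permutation p = 0.90), while that of the beta subunit genes went from 387 ± 18.4 to 559.6 ± 19.2, 1.45 times as much (exact permutation p = 0.10). The alpha sums are alike on the TPM scale only. On TMM library sizes *ITGAL*, the largest part of the alpha sum, was 1720.4 ± 98.8 CPM in Control and 1390.2 ± 66.8 CPM with WNK463. *ITGB2* made up 78.2 ± 0.918% of the beta sum in Control and 70.0 ± 1.04% with WNK463, and *ITGAL* 73.3 ± 0.658% and 70.3 ± 0.787% of the alpha sum.

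**Figure D3:**
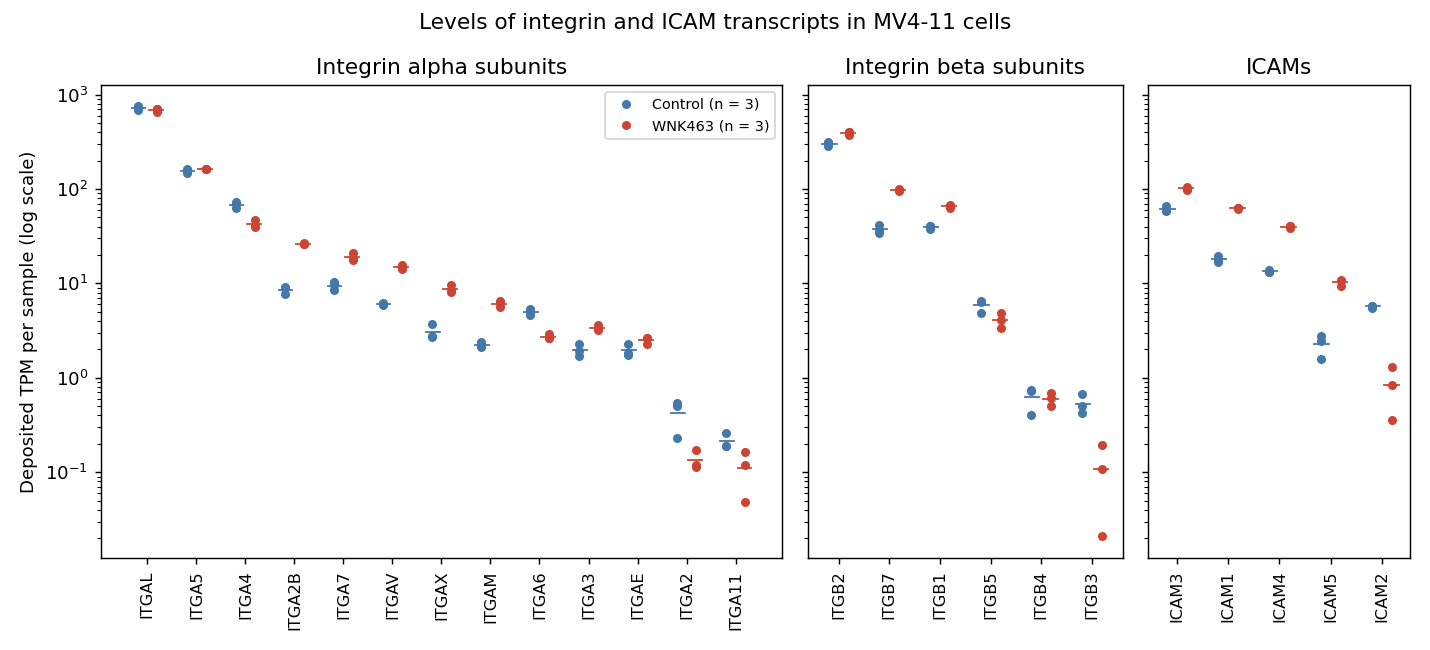
Deposited TPM (vertical axis, log scale) of the tested integrin alpha, integrin beta and ICAM genes in each of 3 Control (blue) and 3 WNK463 (red) samples, with the group mean as a short line. *ITGAL*, *ITGA5* and *ITGA4* stay the highest alpha transcripts and *ITGB2* the highest beta transcript in both groups, and *ITGB7* moves above *ITGB1* with WNK463.

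Of 29 listed genes that switch integrins on and tie them to actin, 23 were tested, 8 were higher, 10 lower and 5 did not pass, with a median log2 fold change of -0.10 and 1 call, where 70.8% of all tested genes passed and 15.2% were called. That call was *TLN2*, a talin gene, with 105, 104 and 106 counts in Control and 258, 234 and 249 counts with WNK463 (log2 fold change 1.17, edgeR adjusted p = 9.7e-08). *FLNA*, which encodes the actin crosslinker filamin and was the most abundant of the list, rose by 0.27 (adjusted p = 3.2e-04). Of 25 extracellular integrin ligand genes only 5 were expressed enough to test. *COL6A1* (log2 fold change 1.26, edgeR adjusted p = 1.6e-09) and *COL4A2* (2, 4 and 3 counts in Control, 34, 43 and 29 counts with WNK463, adjusted p = 1.1e-06) were called higher, where 9.62% of all tested genes were called higher. *COL4A2* passed the filter through WNK463 only, so its direction is a description. The laminin chain gene *LAMC1*, the most abundant of these ligands, fell by 0.95 (adjusted p = 1.5e-10). *VCAM1*, the counter-receptor of the *ITGA4* integrins, had a sum of 1 count over the 6 samples.

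*PECAM1*, which encodes a homophilic receptor of leukocytes, platelets and endothelium, had 105, 91.4 and 94.3 CPM in Control and 176, 163 and 168 CPM with WNK463. It rose 1.75-fold (log2 fold change 0.80 ± 0.06, edgeR adjusted p = 9.5e-10). The 5 endothelial markers named above stayed at 3 counts or fewer in every sample. Other genes known from endothelium, given below, differed. *JAM2* and *ESAM* were called higher, *PCDH12* did not pass and *CDH5* had 4 counts or fewer in every sample. *SELPLG*, the main selectin ligand of leukocytes, had 149.7, 138 and 147 CPM in Control and 192, 167 and 171 CPM with WNK463, a rise of 1.22-fold (log2 fold change 0.28 ± 0.06, edgeR adjusted p = 2.5e-04). *SELE* and *SELP*, the endothelial and platelet selectin genes, had no counts in any sample. Among 16 listed selectin ligand carriers and enzymes, 14 were tested, 4 were higher, 5 lower and 5 did not pass, near the 70.8% of all tested genes that passed. The sialyltransferase gene *ST3GAL4*, which helps to build the selectin-binding sugar, had 844, 691 and 787 counts in Control and 354, 307 and 299 with WNK463 (log2 fold change -1.33, edgeR adjusted p = 8.3e-11). *CD44*, a carrier and hyaluronan receptor and the most abundant of the list, rose by 0.50 (adjusted p = 2.4e-08).

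Nectins are immunoglobulin receptors of cell junctions that also serve as ligands of lymphocyte receptors. *NECTIN1* was the most abundant and did not pass, with 86.3, 93.3 and 81.8 CPM in Control and 94.0, 83.7 and 91.4 CPM with WNK463 (log2 fold change 0.04 ± 0.06, edgeR adjusted p = 0.55). *NECTIN2*, a ligand of the receptors DNAM-1 and TIGIT, had 33.9, 31.1 and 30.3 CPM in Control and 52.1, 44.4 and 49.2 CPM with WNK463, a rise of 1.53-fold (log2 fold change 0.61 ± 0.08, edgeR adjusted p = 1.1e-06). *NECTIN4* stayed at or below 0.988 CPM in every sample and did not pass (adjusted p = 0.66).

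Several junction receptors of low level were higher with WNK463. *CADM1*, a homophilic receptor known in epithelia and mast cells, had 1.22, 1.37 and 1.34 CPM in Control and 3.08, 2.44 and 3.19 CPM with WNK463 (log2 fold change 1.14 ± 0.27, edgeR adjusted p = 9.7e-04). *CADM4* had 5, 6 and 11 counts in Control and 27, 28 and 25 counts with WNK463 (log2 fold change 1.79 ± 0.38, edgeR adjusted p = 4.0e-04). *JAM2*, a junctional adhesion molecule of endothelium, had 4, 2 and 2 counts in Control and 23, 25 and 14 counts with WNK463 (log2 fold change 2.83 ± 0.49, edgeR adjusted p = 5.5e-05). In CPM, samples of the groups did not overlap for these 3 genes, although the Control counts of *JAM2* are too few to fix the size of its change. In TPM the groups overlapped for *CADM1* (1.22 TPM in Control 2 and 1.19 TPM in WNK463 2). *CADM4* and *JAM2* passed the filter through WNK463 only.

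Among CEACAM genes, *CEACAM19* had 11, 5 and 4 counts in Control and 23, 34 and 28 counts with WNK463 (log2 fold change 2.01 ± 0.40, edgeR adjusted p = 2.4e-04). *CEACAM21* went down, with 7.98, 6.58 and 5.18 CPM in Control and 3.50, 3.72 and 4.34 CPM with WNK463 (log2 fold change -0.77 ± 0.19, edgeR adjusted p = 0.0015). *CEACAM4*, a granulocyte gene, had a log2 fold change of -0.03 ± 0.28 (adjusted p = 0.92), with a positive sign under total-count scaling and in limma on TPM, and 9 of the 12 CEACAM symbols stayed under 10 counts in sum.

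Other junction and nectin-like receptors that the symbols above leave out were taken as a list of 16 genes, of which 10 were tested, 5 higher, 3 lower and 2 not passed, where 70.8% of all tested genes passed. *ESAM*, an endothelial and platelet relative of the JAM genes, had 1, 3 and 0 counts in Control and 32, 27 and 22 counts with WNK463, and no fold is given against so few counts. *L1CAM* rose (7, 4 and 3 counts against 35, 13 and 15, edgeR adjusted p = 0.0015), as did *CD226*, the DNAM-1 gene (11, 1 and 3 counts against 17, 18 and 12, adjusted p = 0.015). *NCAM1* fell by 1.32 (adjusted p = 0.0075), and the most abundant of the list, *CD99L2*, rose by 0.31 (adjusted p = 1.8e-04). *ESAM*, *L1CAM* and *CD226* passed the filter through WNK463 only and *NCAM1* through Control only, so their direction is a description.

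Classical cadherins had few counts. Of 23 cadherin symbols, 8 reached a sum of 10 counts and 4 were tested, and the epithelial and neural genes *CDH1* and *CDH2* were among those under the sum. *CDH15*, the muscle cadherin gene, was the only cadherin gene of the 4 that passed, with 2.74, 2.61 and 1.71 CPM in Control and 11.6, 8.55 and 10.1 CPM with WNK463. It rose 4.28-fold (log2 fold change 2.10 ± 0.20, edgeR adjusted p = 2.8e-08), without overlap. *CDH23*, *CDH26* and *CDH24* had log2 fold changes of 0.55, 0.49 and 0.07 with adjusted p-values of 0.17, 0.23 and 0.83. Catenins tie cadherins to actin. Of 12 listed genes for this linkage and that of nectins, 8 were tested, 2 were higher, 5 lower and 1 did not pass, and 3 were called, where 70.8% of all tested genes passed and 15.2% were called. *CTNND1*, which encodes p120 catenin, had 235, 319 and 258 counts in Control and 941, 1143 and 857 counts with WNK463 (log2 fold change 1.79, edgeR adjusted p = 2.2e-10), and *JUP*, which encodes plakoglobin, had 39, 34 and 41 counts against 256, 200 and 220 (log2 fold change 2.51, edgeR adjusted p = 2.3e-10). *CTNNAL1* fell by 1.36 (adjusted p = 2.4e-07) and *CTNNB1*, the beta-catenin gene and the most abundant, fell by 0.28 (adjusted p = 3.1e-05).

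Protocadherins are cadherin relatives, many of them encoded in clusters on chromosome 5 where each variable first exon is spliced to shared constant exons. Of 66 protocadherin symbols 17 had at least 10 counts in sum, 13 of them in the gamma cluster and none in the alpha cluster. All 5 tested gamma genes fell and passed the test, with a median log2 fold change of -1.27, and 4 of them were called. Of all tested genes 35.3% passed lower and 5.55% were called lower. *PCDHGB7* and *PCDHGA6* passed the filter through Control only, so their direction is a description. In limma on TPM 4 of the 5 passed, but the falls were smaller. With log2(TPM + 1) none of the called 4 reached a 2-fold change (-0.87 for *PCDHGC3*, -0.93 for *PCDHGB7*, -0.79 for *PCDHGA11* and -0.22 for *PCDHGA6*), and with log2(TPM + 0.1) *PCDHGC3* was at -0.91 and *PCDHGA6* at -0.78. *PCDHGC3*, the most abundant, had 54.8, 53.2 and 50.3 CPM in Control and 27.3, 19.5 and 19.0 CPM with WNK463 (log2 fold change -1.27 ± 0.10, edgeR adjusted p = 5.2e-09). *PCDHGB7* had 6.64, 3.91 and 5.37 CPM in Control and 0.544, 1.34 and 1.85 CPM with WNK463 (log2 fold change -2.10 ± 0.32, edgeR adjusted p = 1.3e-05). *PCDHGA11* and *PCDHGB2* had log2 fold changes of -1.16 ± 0.20 (adjusted p = 4.4e-05) and -0.85 ± 0.18 (adjusted p = 4.9e-04). *PCDHGA6*, with 11, 10 and 25 counts in Control and 8, 6 and 4 with WNK463, had a log2 fold change of -1.39 ± 0.48 (edgeR adjusted p = 0.015). This call did not pass without WNK463 2 (adjusted p = 0.050) or WNK463 3 (adjusted p = 0.062), and the gene was not tested without Control 3. In limma on TPM it did not pass either (adjusted p = 0.19 and 0.12).

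The gamma genes are not independent measurements. The 13 members share 2181 exon bases, which make up 27.6% to 45.8% of the exon length of each, and reads from there could be split among them by the counting. Their sum, which does not depend on that split, was 81.1, 76.1 and 74.3 CPM in Control and 37.3, 33.4 and 31.7 CPM with WNK463 (77.2 ± 3.50 against 34.1 ± 2.83 CPM, log2 ratio -1.18, exact permutation p = 0.10). *PCDHGC3* took 68.3 ± 1.29% of the sum in Control and 63.8 ± 8.26% with WNK463 (exact permutation p = 0.40). Outside the clusters, *PCDH9* had 3, 3 and 6 counts in Control and 16, 26 and 15 with WNK463 (log2 fold change 2.15 ± 0.47, edgeR adjusted p = 4.9e-04). The groups overlapped in TPM (0.135 TPM in Control 3 and 0.127 TPM in WNK463 2), and *PCDH9* did not pass in limma on log2(TPM + 1) (0.13, adjusted p = 0.36) or log2(TPM + 0.1) (0.70, adjusted p = 0.17). *PCDH12*, known from endothelium, had 1.83, 1.65 and 1.52 CPM in Control and 1.57, 3.08 and 3.00 CPM with WNK463 and did not pass (adjusted p = 0.074) with edgeR, but passed in limma on log2(TPM + 1) (adjusted p = 0.036). In the beta cluster, no gene was above the filter, and *PCDHB9*, the more abundant of its 2 members, had 7, 4 and 1 counts in Control and 4, 5 and 5 with WNK463.

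**Figure D4:**
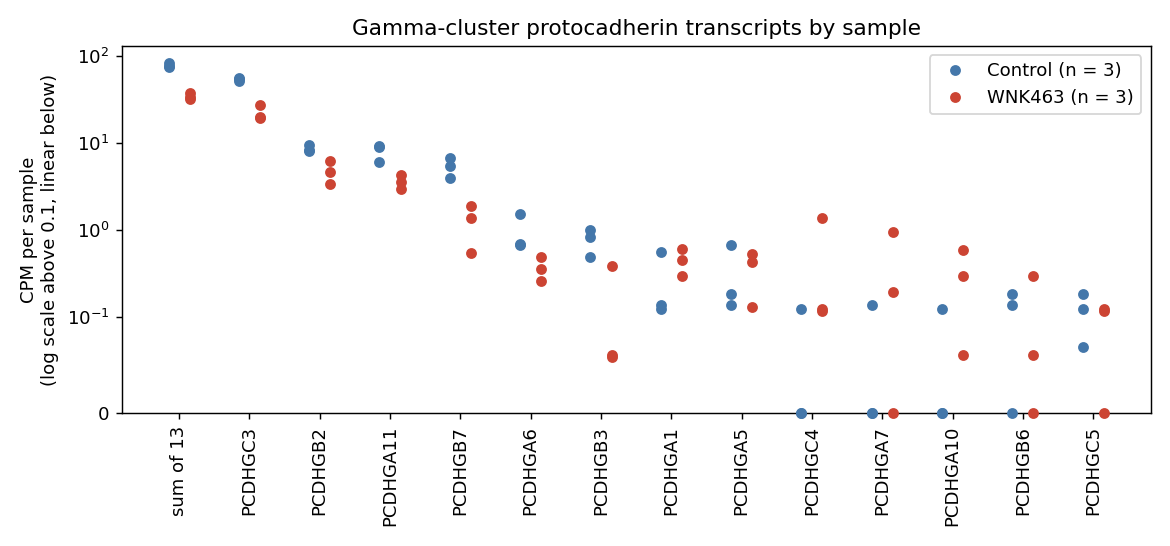
CPM on TMM library sizes (vertical axis, log scale above 0.1 and linear below) of the 13 gamma-cluster protocadherin genes and of their sum in each Control (blue) and WNK463 (red) sample. The sum and the 5 genes with the highest levels are lower in all WNK463 samples, while 7 of the 8 genes below the filter on low counts overlap between the groups.

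The 18 members below the filter had few counts. Among integrin genes, *ITGA10* had 0, 2 and 3 counts in Control and 10, 9 and 5 with WNK463, *ITGA1* 0, 1 and 3 against 3, 10 and 5, and *ITGA9* 6, 3 and 1 against 16, 3 and 6. *PCDHGB3* went down from 8, 12 and 16 counts to 1, 1 and 6. For *PCDHGC4* the 2, 2 and 21 counts with WNK463 came mainly from WNK463 3. *CDH5*, the endothelial cadherin gene, had 0, 0 and 4 counts in Control and 2, 2 and 2 with WNK463. A further 84 symbols were under 10 counts in sum, among them *ITGA8*, *ITGAD*, *ITGB6*, *ITGB8*, *JAM3* and *NECTIN3*, and a change in them was not detectable at this depth.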

How the data were processed

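RNA-seq libraries of 3 Control and 3 WNK463 samples of MV4-11 cells were re-analysed. The estimated counts per gene, as whole numbers without normalization, and the TPM values were deposited by the authors. The submitters' processing notes name fastp, Bowtie2, HISAT2, StringTie, RSEM, DESeq2, edgeR and GRCh38, without roles or versions. The authors' own group means, fold changes and p-values were not used.

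For 11973 of 20348 genes, the quasi-likelihood test of edgeR 4.0.16 (R 4.3.3) was run on the counts with TMM factors, filterByExpr and no block. The SE of a log2 fold change is its size over the square root of F. CPM use TMM library sizes. Coordinates and exons are from GENCODE 29 and promoters from RefSeq (GRCh38.p14). No shared deviation was seen between Control and WNK463 samples of the same replicate number (correlations of deviations 0.013, 0.016 and -0.056). The labels do not say whether these numbers pair the samples. The procedure was tested on simulated data. The members and gene lists were chosen with earlier results of these data known. Genes named are all called members, the 3 most abundant integrin alpha and beta genes, the most abundant gene of each other family and, of each other list, up to 4 called genes and the most abundant one. Others are given for their role or as low-count examples and were chosen after their values were seen. Of the 18 members below the filter only some are named with their counts, and a further gene is not reported here. Alternatives were DESeq2 1.42.0, total-count scaling, other filters, a test against a 2-fold change, limma 3.58.1 on log2(TPM + 1) and log2(TPM + 0.1), a replicate block and each sample left out.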

Additional observations from a re-analysis of the deposited data

How the results depend on the processing

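The 14 members called higher and 9 called lower were 14 and 9 again with the replicate number as a block, with 22 higher and 14 lower on the adjusted p and a median of 0.40. In fits that left out 1 sample each, 14 were called higher in every fit, 8 to 10 lower, 22 to 23 and 13 to 15 passed, and the median was 0.30 to 0.40. The members called higher were 10 when at least 10 counts were required in every sample, 10 with limma on log2(TPM + 1), 13 with log2(TPM + 0.1) and 18 without a filter. The members called lower were 3 when at least 10 counts were required in every sample (8 passed lower), 1 with limma on log2(TPM + 1), 5 with log2(TPM + 0.1), which kept 11 and 18 of the 23 calls in both directions, and 4 in a test against a 2-fold change. The median of 0.39 was 0.54 with total-count scaling, which raised the median of all genes by 0.15, 0.49 without a filter, 0.54 with the filter of 10 counts, 0.28 with log2(TPM + 1) and 0.52 with log2(TPM + 0.1). The filter of 10 counts leaves fewer genes to call, and for the other shifts the cause was not tested. *ITGA5* was at 0.09 with total-count scaling and 0.08 in both limma fits, and *NECTIN1* at -0.01 without Control 3. *PCDH12* passed without WNK463 1 (adjusted p = 0.014), with total-count scaling (0.030), with the filter of 10 counts (0.044) and in limma on log2(TPM + 1) (0.036) and log2(TPM + 0.1) (0.049). *NECTIN1* passed with total-count scaling (adjusted p = 0.0094).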
